A study of Mus musculus with 2 samples.

Results

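Mir183, Mir96 and Mir182 are 3 miRNA genes of 1 genomic cluster, and their small RNA counts are described here in the adrenal gland of the mouse. They were picked out by their symbols in GENCODE M21, and all 3 were found among the 2202 miRNA genes counted. The tissue came from male B6CASTF1/J mice, first-generation hybrids of a laboratory strain and a castaneus-derived strain, aged 2 months. The 2 libraries form 1 group: replicate 1 was made from animal 3 and replicate 2 from animal 4. The labels give them as separate biological replicates but name the same donor record for both, so p-values below compare these samples only and cover counting error. RNA of under 30 nt from the whole organ was sequenced, cortex and medulla together, with no treatment and no other tissue. Fewer cells of a type and less RNA per cell therefore cannot be told apart.

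The 3 genes are conserved across vertebrates and are processed from 1 primary transcript, from which each hairpin is cut and then trimmed to a mature miRNA. The cluster is best known from sensory organs, where photoreceptors and inner ear hair cells hold its products at high levels, and loss of miR-96 function impairs hearing in mouse and human. In the adrenal gland, interest in the cluster comes from rat, in which corticotropin (ACTH), the pituitary hormone that drives glucocorticoid synthesis, was reported to raise all 3 products. No animal here was given ACTH, so that response was not measured.

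The mature sequences below are shown because they let the 3 products be told apart read by read. The arm near the 5′ end of each hairpin gives the better known product, and its seed, bases 2 to 8 counted from the 5′ end, is in capitals (RefSeq, GRCm38.p6).
mmu-miR-183-5p: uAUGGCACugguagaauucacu
mmu-miR-96-5p: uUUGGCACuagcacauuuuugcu
mmu-miR-182-5p: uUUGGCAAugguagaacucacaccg
mmu-miR-1271-5p: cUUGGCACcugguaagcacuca
The 3 seeds share the core UGGCA, which was read from these seeds. At any place in the seed, it is found in 7 of the 1738 mature mouse miRNAs in the RefSeq table (0.403%). The 7 are the 3 products themselves, miR-1271-5p, miR-221-5p, miR-3069-5p and miR-7022-5p. From miR-183-5p to miR-96-5p the seed differs by A2U alone, and from miR-182-5p to miR-96-5p by A8C alone. From miR-183-5p to miR-182-5p both ends of the seed differ, A2U and C8A. Over the whole length the order of likeness is another: miR-182-5p has the same base as miR-183-5p at 18 of 22 positions but as miR-96-5p at 12 of 23. The only other mature miRNA with the seed of miR-96-5p is miR-1271-5p, from Gm24195 on chromosome 13. Gm24195 had 0 counts in both libraries, which allows up to 0.522 CPM (replicate 1) and 0.900 CPM (replicate 2) at 3 counts. CPM are counts scaled to 1000000 counts at miRNA genes. Among genes that share only the core, Mir221 had 762 CPM (replicate 1) and 882 CPM (replicate 2), with both arms counted together. Mir3069 had 1.91 and 2.70 CPM in the same order, and Mir7022 had 0 in both. No other mature miRNA has the seed of miR-183-5p or of miR-182-5p.

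The hairpins are shown because counts were given per hairpin, with reads of both arms added together; the mature arms are in capitals.
Mir183: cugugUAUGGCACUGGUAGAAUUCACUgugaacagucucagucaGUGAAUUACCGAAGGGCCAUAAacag
Mir96: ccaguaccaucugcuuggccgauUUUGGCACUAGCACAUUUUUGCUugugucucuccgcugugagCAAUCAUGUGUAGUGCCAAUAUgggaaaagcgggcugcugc
Mir182: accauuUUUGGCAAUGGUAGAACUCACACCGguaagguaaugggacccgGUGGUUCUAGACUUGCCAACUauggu
The annotated hairpins are 70 bases long for Mir183, 106 for Mir96 and 75 for Mir182, and their predicted minimum free energies are -26.2, -47.9 and -29.9 kcal/mol. Each of the 6 mature arms is encoded at 1 locus in the RefSeq table. No window of 18 bases of any arm was found in another RefSeq hairpin or in a GENCODE transcript of another gene, on either strand. The rest of the genome was not searched. Reads that aligned to several places were not counted at genes, and their share of the aligned reads was 39.4% (replicate 1) and 41.2% (replicate 2).

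All 3 genes lie on the minus strand of chromosome 6 (mm10, GENCODE M21) in the order Mir183, Mir96, Mir182. Mir183 (ENSMUSG00000065619.2) spans 30169668 to 30169737, Mir96 (ENSMUSG00000065586.1) spans 30169446 to 30169551, and Mir182 (ENSMUSG00000076361.1) spans 30165918 to 30165992. Mir183 and Mir96 are 116 bases apart, and 3453 bases separate Mir96 from Mir182. GENCODE M21 places 0 other genes across this span and 0 other miRNA genes within 10 kb of it. RefSeq (GRCm38.p6) annotates the host lncRNA Mirc35hg on the same strand from 30158640 to 30174125, so the 3 hairpins begin 4388, 4574 and 8133 bases after its start. On the plus strand, the long non-coding RNA Rncr4, known from mouse retina for its effect on the processing of this primary transcript, spans 30172893 to 30175126 and overlaps that start. Long RNAs were not measured.

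**Figure D1:**
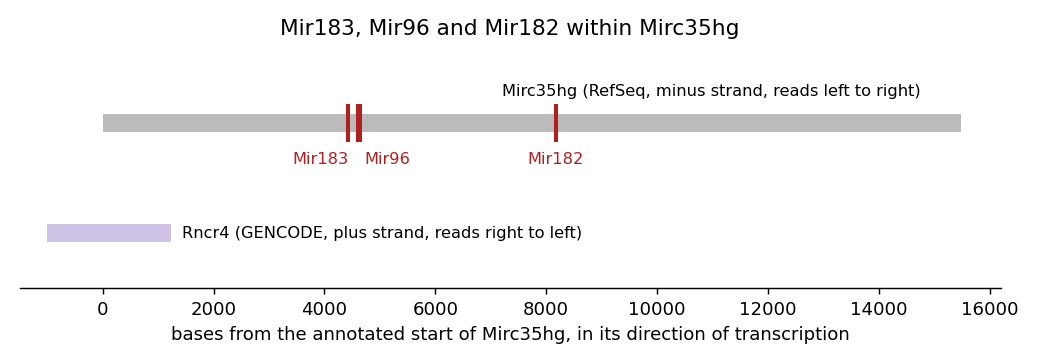
Map of the host lncRNA Mirc35hg (grey), the 3 miRNA hairpins (red) and the opposite-strand lncRNA Rncr4 (violet), drawn to scale; the x axis gives bases from the annotated start of Mirc35hg in its direction of transcription. Mir183 and Mir96 lie side by side, and Mir182 lies 3453 bases beyond Mir96.

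Of 17000342 reads in replicate 1, 5752428 fell on the annotated strand of a miRNA gene, as did 3333149 of 10752051 reads in replicate 2. The libraries stood apart in erythroid miRNAs: the 3 genes Mir451a, Mir144 and Mir486 summed to 22813 CPM (replicate 1) and 901 CPM (replicate 2). Of the 389 genes averaging 10 or more counts, 232 (59.6%) differed between the libraries beyond counting error. This was a two-sided exact binomial test against library sizes scaled by TMM, a trimmed mean of log ratios, with Benjamini-Hochberg adjustment. A call in it is therefore common, and it compares these libraries, not conditions.

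All 3 genes reached the 2 CPM taken as detection in each library, and they differed widely in level. Mir182 had 320 CPM in replicate 1 (from 1840 counts, with an exact Clopper-Pearson 95% interval of 305 to 335) and 354 CPM in replicate 2 (from 1181 counts, 334 to 375). Mir183 had 126 CPM in replicate 1 (722 counts, 117 to 135) and 89.7 CPM in replicate 2 (299 counts, 79.8 to 100.5). Mir96 had 7.65 CPM in replicate 1 (44 counts, 5.56 to 10.3) and 19.8 CPM in replicate 2 (66 counts, 15.3 to 25.2). The order Mir182, Mir183, Mir96 held in both animals, and no interval of 1 gene overlapped that of another. Intervals cover counting error only, and without molecular identifiers the reads may not stand for independent molecules.

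Among the 372 detected genes Mir182 ranked 124, Mir183 177 and Mir96 280 by mean CPM, with a median of 86.8 CPM over all detected genes. Mir182 thus stood above 66.7% of the detected genes, Mir183 above 52.4% and Mir96 above 24.7%. Mir183 was near the middle, with rank 163 among all miRNA genes in replicate 1 and rank 188 in replicate 2. The sum of the 3 genes was 453 CPM in replicate 1 (436 to 471), with 464 CPM in replicate 2 (441 to 488), or 458 ± 7.64 CPM (mean ± SD, n = 2). The intervals of the sum overlapped, although those of Mir183 and of Mir96 did not overlap between the libraries. This overlap holds for CPM, which are scaled to total counts. TMM scaling, which moved log2 ratios of replicate 1 over replicate 2 up by 0.20, was not applied to the sum. None of the 3 genes had a count on the opposite strand in either library, so the unstranded counts were identical to those of the gene's strand.

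**Figure D2:**
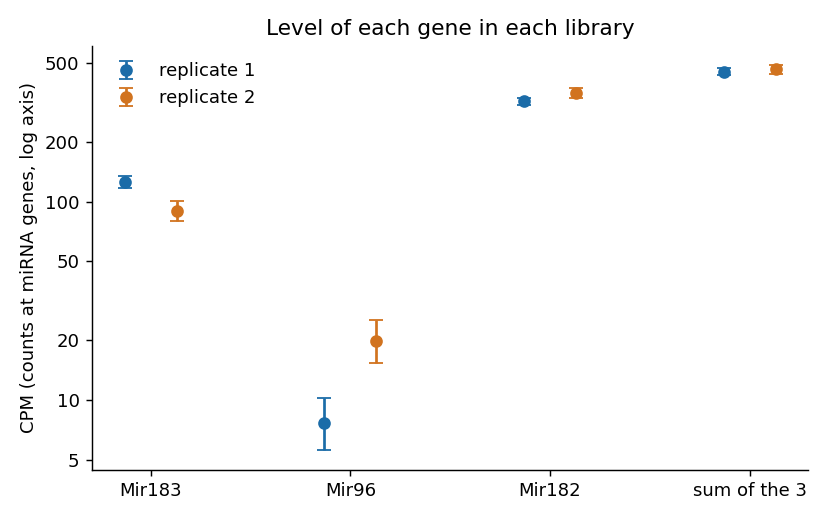
CPM (log axis) of each gene and of the sum of the 3 in replicate 1 (blue) and replicate 2 (orange); points are single libraries and bars are 95% Clopper-Pearson intervals. Mir183 is higher in replicate 1, Mir96 is higher in replicate 2, and the sums of 453 and 464 CPM lie within each other's intervals. CPM are scaled to total counts and not by TMM.

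The composition of the cluster differed between the libraries. With 1 library per animal, a difference between animals cannot be told from one between libraries. Mir182 made up 70.6% of the cluster's counts in replicate 1 and 76.4% in replicate 2. Mir183 made up 27.7% in replicate 1 and 19.3% in replicate 2. Mir96, the middle gene of the transcript, made up 1.69% in replicate 1 (exact 95% interval 1.23 to 2.26) and 4.27% in replicate 2 (3.32 to 5.40). Mir182 thus had the largest share of the cluster's counts in both animals, and Mir96 had a small share in both. These are shares of counts, and how evenly the products were captured was not measured.

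Ratios of 2 genes within a library need no scaling, so they show the same shift without regard to depth or to the erythroid counts. Mir182 exceeded Mir183 2.55-fold in replicate 1 (2.34 to 2.78) and 3.95-fold in replicate 2 (3.48 to 4.50). Mir182 exceeded Mir96 41.8-fold in replicate 1 (31.0 to 57.8) and 17.9-fold in replicate 2 (14.0 to 23.3). Mir183 exceeded Mir96, its neighbour at 116 bases, 16.4-fold in replicate 1 (12.1 to 22.8) and 4.53-fold in replicate 2 (3.46 to 6.01). The direction of each ratio was the same in both libraries, and its size was not. All 3 ratios differed between the libraries beyond counting error by Fisher's exact test (two-sided, adjusted over the 3 pairs). The adjusted p was 2.47e-08 for Mir182 over Mir183, 1.62e-05 for Mir182 over Mir96 and 9.77e-10 for Mir183 over Mir96. The widest shift was that of Mir183 over Mir96, at 1.86 on the log2 scale (replicate 1 minus replicate 2) with a counting SE of 0.30.

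**Figure D3:**
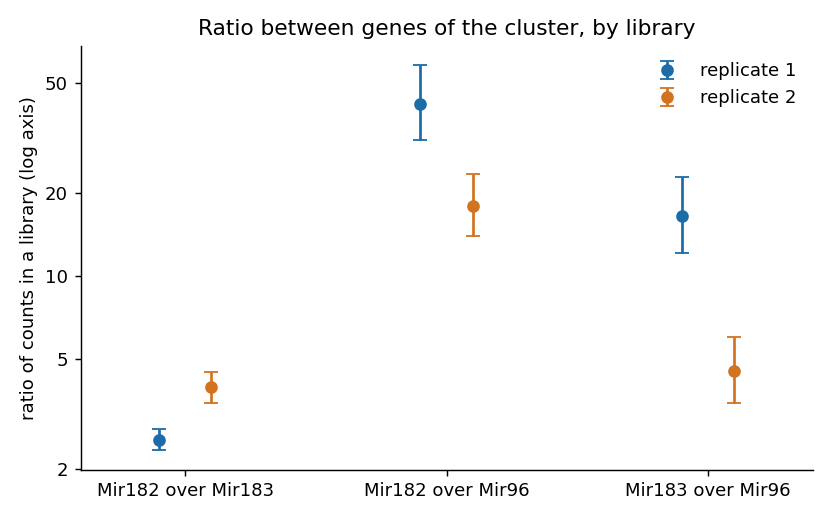
Ratio of counts (log axis) for the 3 pairs of genes in replicate 1 (blue) and replicate 2 (orange), with exact 95% intervals from the binomial distribution. Mir183 over Mir96 is 16.4 in replicate 1 and 4.53 in replicate 2, the pair with the widest gap between the libraries.

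Set against all tested genes, Mir183 was higher in replicate 1 and Mir96 was lower there, while Mir182 was not called. The log2 ratio of replicate 1 over replicate 2 after TMM scaling was 0.68 for Mir183, with a counting SE of 0.10 and an adjusted p of 5.73e-12 by the exact binomial test. It was -1.17 for Mir96 (SE 0.28, adjusted p 5.41e-05, exact binomial test). For Mir182 it was 0.05 (SE 0.05, adjusted p 0.464, exact binomial test), and by total counts its log2 ratio turned to -0.15. So 2 of the 3 genes were called, 1 in each direction, beside 59.6% of all 389 tested genes, 30.8% higher and 28.8% lower in replicate 1. The median absolute log2 ratio over all tested genes was 0.40, which lay below those of Mir183 and Mir96 and above that of Mir182. With the dispersion that edgeR estimated from both libraries (a coefficient of variation of 0.361), its exact test gave Mir183 an unadjusted p of 0.370 and Mir96 one of 0.159. That test called 1.03% of the genes and neither of these. Its dispersion was estimated from the same libraries taken as 1 group, so it holds the difference under test. The missing calls therefore decide nothing about either gene. The erythroid genes, all 3 called higher in replicate 1, moved with Mir183 in direction. So did other genes among the 30.8% called higher, such as the neuroendocrine Mir375 (log2 ratio 0.77). The part of these genes in the result was not tested. Without the genes above 1% of the counts, Mir451a among them, the log2 ratio was 0.71 for Mir183 and -1.14 for Mir96.

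**Figure D4:**
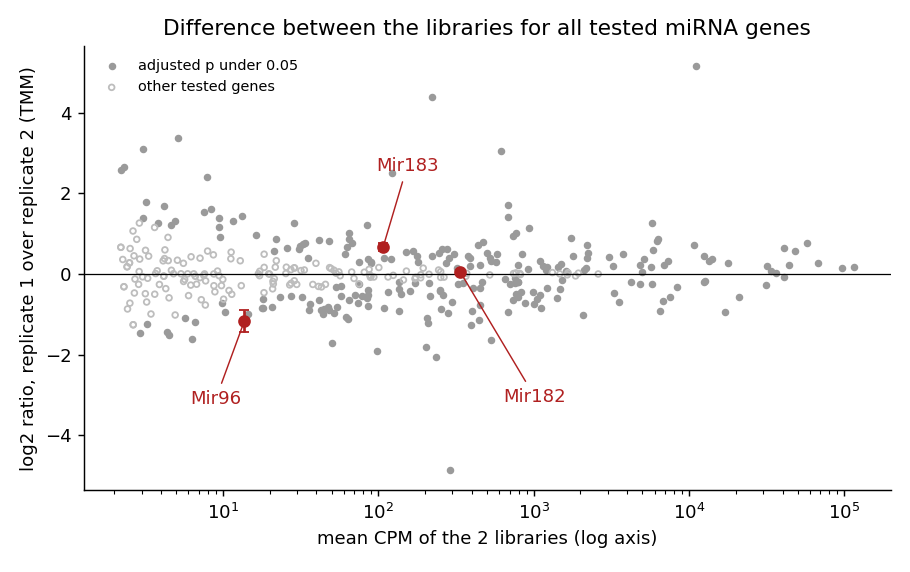
Log2 ratio of replicate 1 over replicate 2 after TMM scaling against mean CPM (log axis) for the 389 tested miRNA genes; filled grey points passed the exact binomial test at an adjusted p under 0.05, and red points with counting SE are the 3 genes of the cluster. Mir183 lies above 0 at 0.68, Mir96 below at -1.17 and Mir182 near 0 at 0.05.

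Uneven counts within a genomic cluster were common in these libraries. When miRNA genes of the same strand were joined within 10 kb, 44 other clusters had 2 or more detected genes. The span from the highest to the lowest detected gene was 4.77 ± 0.87 on the log2 scale here (mean ± SD, n = 2), against a median of 3.85 in the others, and 29 of the 44 had a smaller span. Genes below detection did not enter a span, and some clusters, such as that of Mir302a (5 genes, 3 detected), hold such genes. Among 9 other clusters with 3 detected genes, the span ranged from 0.49 for Mir302a over Mir302d to 9.31 for Mir23b over Mir24-1. Of these 9, 6 were below 4.77. The 3 above it hold a gene whose mature product is encoded at several loci, and its multiply aligned reads were not counted, so their spans are uncertain. When clusters with such a product in the RefSeq table, or with a copy number in a symbol, were left out, 19 of the remaining 23 had a smaller span. This rule left in Mir467d over Mir669h (span 6.11), a cluster of 119 genes with 7 detected. The place of the cluster rests on Mir96. At a detection limit of 10 CPM, which Mir96 missed in replicate 1, the span was 1.67 for Mir182 over Mir183, below the median of 3.86 in the others, and 9 of 35 had a smaller one. No test was made of these ranks.

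**Figure D5:**
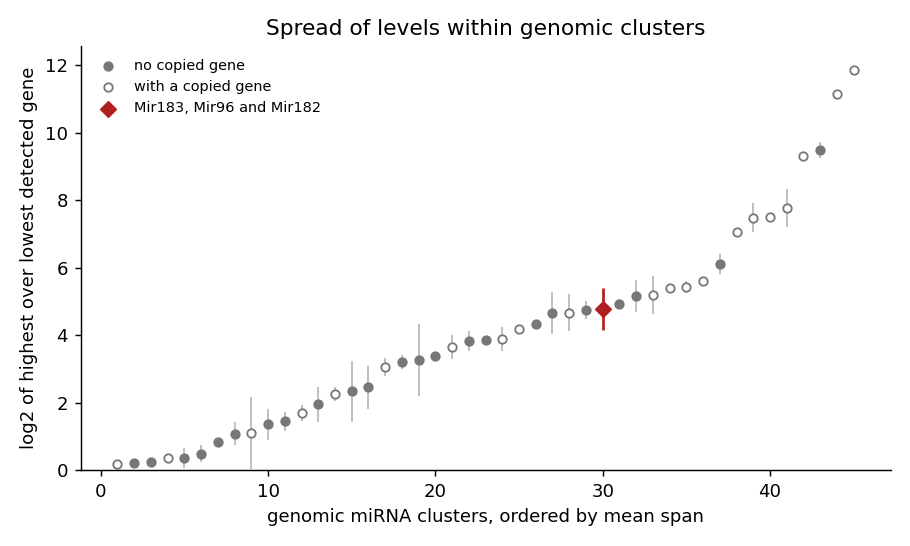
Log2 of the highest over the lowest detected gene in each of the 45 genomic clusters, ordered by the mean of both libraries; points are means, lines join the 2 libraries, and open points mark clusters with a copied gene (a mature product at several loci or a copy number in the symbol). The cluster of Mir183, Mir96 and Mir182 (red) has a span of 4.77 and 29 clusters below it.

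The shift in composition between the libraries was also seen elsewhere. Members were called in opposite directions in 13 of the other 44 clusters (29.5%), as they were here. The log2 ratios of replicate 1 over replicate 2 covered a range of 1.85 within this cluster, against a median of 0.73 in the others, and 3 of the 44 had a wider range. The 44 counts of Mir96 in replicate 1 limit the precision of that range. Many of the other clusters had 2 tested genes against 3 here, and a range tends to widen with the number of genes. At 10 CPM, and so without Mir96, the range was 0.63 against a median of 0.71, 19 of 35 had a wider one, and no opposite call remained in this cluster.

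Other genes reported to respond to ACTH in rat adrenal were set beside the cluster. The list of 5 genes reported as raised consists of the 3 members and of Mir132 and Mir212, and both of these were detected. Mir132, a miRNA induced through the transcription factor CREB, had 1416 CPM (replicate 1) and 1449 CPM (replicate 2), or 4.43 and 4.09 times the level of Mir182. Its neighbour on the same transcript, Mir212, had 36.7 CPM (replicate 1) and 87.6 CPM (replicate 2). Mir212 was lower in replicate 1 (log2 ratio -1.06, SE 0.13), as Mir96 was, and Mir132 was higher (0.16, SE 0.03), but by total counts Mir132 turned to -0.03.

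Of the genes reported as lowered by ACTH in rat, Mir214 had 734 CPM (replicate 1) and 1504 CPM (replicate 2), and Mir27a had 759 and 1343 CPM in the same order. Both were lower in replicate 1, with log2 ratios of -0.84 and -0.62, beside 28.8% of all tested genes called lower. Mir503 had 154 CPM (replicate 1) and 191 CPM (replicate 2) and was not called. By total counts Mir503 was called lower as well (log2 ratio -0.31), as were 170 of all 389 tested genes. The median log2 ratio of these 3 genes was -0.62. The 28 Mir466 genes, relatives of the remaining reported gene, had 2 counts in sum in each library. Their hairpins are near-copies of each other, and multiply aligned reads are missing from that sum.

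Markers of cell types that share the cluster or could be in the tissue were at very different levels. In the sensory organ list, Mir204, a miRNA of the retinal pigment epithelium, had 42.8 CPM (replicate 1) and 71.7 CPM (replicate 2). It was the 1 gene of 8 detected, and 6 of the 8 had no count in either library, Mir211 among them. The Mir124a and Mir9 genes of this list are copied, and multiply aligned reads are missing from their counts. The neuroendocrine list, which includes genes of hormone-secreting cells, had all 4 genes detected. Its leading gene, Mir375, had 215 times the level of Mir182 in replicate 1 and 130 times in replicate 2, and Mir7b had 11.5 and 13.6 times. Mir375 (log2 ratio 0.77) and Mir7-2 (0.41) were called higher in replicate 1, as Mir183 was. Mir7b was called lower (-0.20), and 1 gene of the list was not called, beside 59.6% of all tested genes called. By total counts, 2 genes of the list were called higher and 2 lower. In the epithelial list the 5 genes of the miR-200 family summed to 58.2 CPM (replicate 1) and 50.7 CPM (replicate 2), below the sum of the cluster. Mir200c led it with 38.8 and 26.4 CPM in the same order, and it was called higher in replicate 1 (log2 ratio 0.75), as Mir183 was. The other 4 epithelial genes were not called, and Mir429, the next by mean CPM, had 6.08 CPM (replicate 1) and 6.90 CPM (replicate 2). White blood cell genes, led by Mir146 and Mir150, summed to 2956 CPM (replicate 1) and 3251 CPM (replicate 2), with 3 called higher and 2 lower in replicate 1, beside 59.6% of all tested genes called. By total counts, 0 of them were called higher and 2 lower. The part of these cell types in the levels of the cluster was not tested.

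The genes closest to each member in level over the 2 libraries were found by distance in log2(CPM + 1). Mir182 was closest to Mir155 (distance 0.12), an immune cell miRNA with 318 CPM (replicate 1) and 326 CPM (replicate 2), followed by Mir376a (0.18) and Mir181b-2 (0.19). Mir183 was closest to Mir7-2 (0.20), 1 of the genes of neuroendocrine miR-7, with 117 and 101 CPM in the same order, followed by Mir350 (0.33) and Mir376b (0.38). Mir96 was closest to Mir363 (0.19), a gene of the miR-106a cluster, with 8.87 and 20.1 CPM. Mir129-1 (0.49) and Mir669l (0.51) came next. With 2 libraries, this likeness says little beyond a similar level. Mir7-2, Mir181b-2 and Mir129-1 carry copy numbers, so multiply aligned reads are missing from their counts.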

How the data were processed

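The authors deposited whole-number counts of reads per miRNA gene for 1 library per animal, aligned to mm10 with GENCODE M21, per the file headers. No aligner or trimming setting is named in the labels or headers. Counts on the gene's own strand were used. Rows that name no gene (66.2% of reads in replicate 1 and 69.0% in replicate 2) entered neither library sizes nor tests. Log2 ratios had 0.5 counts added and TMM scaling, which moved them up by 0.20 against total counts. With 1 group, no quasi-likelihood test was possible. The exact binomial test covered genes averaging 10 or more counts, at a threshold of 0.05, and was checked on simulated counts. Apart from set differences, those counts varied by counting error only, so the check did not cover variation between animals. Named genes were the 3 members, the ACTH lists and the 2 highest detected genes of each marker list. Genes with a member's seed and the 3 genes nearest to each member in level were named too. Cluster ends and genes with only the seed core were named after their values were seen. The members and lists were chosen with earlier results of these data known. R 4.3.3, edgeR 4.0.16, DESeq2 1.42.0, Python 3.11.15, SciPy 1.17.1, pandas 2.3.3, matplotlib 3.10.9 and RNAfold 2.7.2 were used.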

Additional observations from a re-analysis of the deposited data

How the results depend on the processing

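The log2 ratios of Mir183 and Mir96 kept their sign under all 8 alternatives, from 0.48 to 0.71 and from -1.37 to -1.12, and their call under 7 of the 8. Some of these alternatives tested little, since added counts entered the ratio and not the binomial test. Leaving out the filter changed only the adjustment, and without regard to strand the counts of these genes were unchanged. With the common dispersion of edgeR the ratios of Mir183 and Mir96 were 0.68 and -1.17, and neither gene was called. Its exact test called 4 genes in all and gave 16 an unadjusted p under 0.05. That dispersion came from the same libraries, so the lost calls decide nothing about either gene. Mir182 turned to -0.15 by total counts (adjusted p 0.0107, exact binomial test) and was not called under the other 7 alternatives. By total counts 85 genes were called higher and 170 lower in replicate 1.

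Levels moved with the denominator. Over all reads, means were 35.1 CPM for Mir183, 4.36 for Mir96, 109 for Mir182 and 149 for the sum. Without the 10 highest genes they were 257, 32.1, 799.8 and 1089, and with totals without regard to strand Mir182 had 400.3 and the sum 545. Single libraries spanned 89.7 to 126 CPM for Mir183, 7.65 to 19.8 for Mir96, 320 to 354 for Mir182 and 453 to 464 for the sum. Mean log2 ratios between members, from single libraries, spanned 1.35 to 1.98 for Mir182 over Mir183, 4.16 to 5.39 for Mir182 over Mir96 and 2.18 to 4.04 for Mir183 over Mir96. At a detection limit of 10 CPM Mir96 was not detected, and 9 of 35 other clusters had a smaller span; without clusters that hold copied genes 19 of 23 did.

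By total counts the log2 ratios of Mir132 (-0.034), Mir429 (-0.19), Mir376b (-0.035), Mir155 (-0.038) and Mir181b-2 (-0.18) reversed. With 1 and 5 counts added Mir429 reversed to -0.0038 and -0.074, and without regard to strand Mir429 and Mir181b-2 reversed to -0.025 and -0.012. Of 180 values of 23 other genes named, 151 kept direction and call, 19 lost the call and 4 gained it, reversed ones included. The causes were not tested. Leaving out genes above 1% of the counts, and clusters with copied genes, was chosen after seeing the data. No paired analysis was possible because all samples belong to 1 group. Depth limits Mir96 most, with 44 counts in replicate 1.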
